A study of Mus musculus with 12 samples.

Results

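Scavenger receptors are cell surface proteins, defined by what they bind rather than by common descent, that take up modified lipoproteins, fatty acids, dying cells and other polyanionic or lipid cargo. In adipose tissue they are best known from macrophages that clear lipid released by dying adipocytes, but adipocytes and endothelial cells carry some of them as well, above all the fatty acid translocase CD36 and the HDL receptor SR-B1. The 9 genes described here were taken by symbol from the table of all 55281 annotated genes, and all 9 were found and passed the filter on low counts. They are the class A receptors Msr1, Marco and Colec12, the class B receptors Cd36 and Scarb1, and Cd68, Olr1 and Stab1 of other classes. The last is Cd5l, which encodes a secreted macrophage protein of the scavenger receptor cysteine-rich family.

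RNA sequencing was done on gonadal white adipose tissue (GWAT) of male mice in 4 groups of 3 libraries. WT mice were Hoip fl/fl without AdipoQ.Cre and HoipA-KO mice were Hoip fl/fl with AdipoQ.Cre, so the floxed allele was shared by all groups and the transgene was carried by the HoipA-KO mice, in which the adiponectin promoter directs the recombinase to mature adipocytes. From 6 weeks of age each genotype received a control diet (CD, 14% fat) or a high-fat diet (HFD, 60% fat) for 16 weeks, and tissue was taken at 22 to 24 weeks of age. Each library held RNA of 3 pooled mice, so the spread reported is the spread between pools.

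The libraries held 30513446 to 60540225 counts, at which 3 counts correspond to 0.0496 to 0.0983 CPM, counts scaled to a common library total. The gene of the deleted protein, Rnf31, encoding HOIP, had a median of 20.8 CPM in WT CD and 18.1 CPM in HoipA-KO CD. A count over the whole gene in whole tissue does not separate recombined from intact transcripts, so it does not check the labels. Of 9 adipocyte markers, 8 were lower in HoipA-KO on CD and all 9 on HFD (7 with 12 libraries). Of all genes tested, 18.8% were lower on CD and 7.62% on HFD. The WT CD libraries stood apart in RNA of other tissues, since the summed CPM of 9 spermatogenic markers was 19.4, 463 and 11294 in replicates 1, 2 and 3, against at most 3.69 in any library of the other groups. WT CD replicate 2 held 14986 CPM of 7 epididymal epithelium markers, and HoipA-KO HFD replicate 1 held 1312 CPM. Leydig cell markers reached 167 CPM in WT CD replicate 2 and 398 CPM in replicate 3, and were between 3.79 and 13.8 CPM in the other groups. The comparisons were fitted on 11 libraries, without WT CD replicate 3, and values over all 12 libraries are given beside them. On CD the median log2 fold change of all genes between genotypes was -0.06 with 11 libraries and -0.21 with 12, and on the other contrasts the 2 fits differed by less.

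All 9 genes are protein-coding, and the positions given are those of the GENCODE annotation of GRCm38, the build named in the submitters' processing notes. Cd36 lies on chromosome 5 (17781690 to 17888801, minus strand), as does Scarb1 (125277087 to 125341094, minus strand). Msr1 lies on chromosome 8 (39581685 to 39642673), Marco on chromosome 1 (120474538 to 120505024), Olr1 on chromosome 6 (129485244 to 129507165), Cd68 on chromosome 11 (69664213 to 69666153) and Stab1 on chromosome 14 (31139013 to 31168641), all on the minus strand. Cd5l lies on the plus strand of chromosome 3 (87357881 to 87371073). Stab1 was the 1 member whose exons overlapped those of another gene, sharing 112 bases (1.09% of its exon length) with Nt5dc2 on the opposite strand.

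RefSeq sequences of the 250 bases before the start site, on GRCm38.p6, were found for 6 of the 9 genes, namely Cd36, Cd5l, Cd68, Marco, Olr1 and Stab1. They were searched on both strands for GAGGAA, the core letters recognised by the myeloid factor PU.1, because most members are known from macrophages. The letters occurred in 5 of the 6 sequences, in all but that of Cd36, and in 23.3% of 32851 promoters of the same length. The first 3 sequences below are of genes that were higher in HoipA-KO CD and in WT HFD than in WT CD, and the last is of Cd36, which has no match and whose RefSeq start site lies inside the GENCODE gene. Each is written 5′ to 3′ on the strand of its gene, with GAGGAA or its reverse complement TTCCTC in capitals.
Cd68, chr11:69666171-69666420: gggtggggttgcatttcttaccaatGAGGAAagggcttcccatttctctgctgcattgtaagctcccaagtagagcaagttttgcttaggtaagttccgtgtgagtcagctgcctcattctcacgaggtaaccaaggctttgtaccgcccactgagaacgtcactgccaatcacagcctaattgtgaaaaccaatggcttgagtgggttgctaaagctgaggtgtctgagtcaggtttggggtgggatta
Olr1, chr6:129507166-129507415: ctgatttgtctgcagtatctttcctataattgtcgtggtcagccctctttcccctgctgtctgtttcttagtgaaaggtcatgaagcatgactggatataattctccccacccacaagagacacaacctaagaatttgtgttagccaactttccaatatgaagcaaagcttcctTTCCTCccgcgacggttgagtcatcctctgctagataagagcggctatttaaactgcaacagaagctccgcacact
Stab1, chr14:31168642-31168891: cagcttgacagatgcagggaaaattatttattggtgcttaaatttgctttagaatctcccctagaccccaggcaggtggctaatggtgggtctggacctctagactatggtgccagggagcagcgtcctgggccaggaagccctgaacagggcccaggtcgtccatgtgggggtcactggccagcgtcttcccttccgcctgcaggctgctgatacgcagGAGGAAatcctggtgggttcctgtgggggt
Cd36, chr5:17835897-17836146: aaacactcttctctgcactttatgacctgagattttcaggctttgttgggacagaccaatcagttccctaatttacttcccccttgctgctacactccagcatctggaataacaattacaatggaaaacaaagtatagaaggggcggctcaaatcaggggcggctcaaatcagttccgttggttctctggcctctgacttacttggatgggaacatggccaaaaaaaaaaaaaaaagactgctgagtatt
The match began 225 bases before the start site in Cd68, 76 in Olr1 and 30 in Stab1, and in the sequences not shown it began 146 bases before it in Marco and 66 in Cd5l. The AP-1 letters TGANTCA, searched the same way, occurred in the promoters of Cd68 and Olr1, 2 of 6, and in 6.75% of all promoters. The E-box letters CACGTG occurred in 0 of the 6 and in 6.02% of all promoters. The TATA box letters TATAAA occurred in 0 of the 6 and in 12.4% of all promoters, and the direct repeat of the PPAR response element in 0 of the 6 and in 0.033%, each searched on both strands. These matches describe the letters in a window and no binding was measured.

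Levels of different genes can be compared only per length, here as CPM per kilobase of annotated exon. In WT CD, Cd36 had the highest median level per length, 567 CPM per kilobase. Cd68 followed at 16.6 and Scarb1 at 13.4, with ranges over the libraries that overlapped. Stab1 at 5.95 and Colec12 at 3.64 overlapped as well, and below them stood Msr1 at 0.799, Marco at 0.532 and Cd5l at 0.347, each overlapping its neighbour. Olr1 was lowest at 0.0779, with all 3 libraries below those of Cd5l. In HoipA-KO CD the order per length was Cd36 at 1829, Cd68 at 1059, Stab1 at 33.4, Scarb1 next, then Msr1 at 17.2, Colec12 at 14.5, Cd5l at 3.34, Marco at 2.84 and Olr1 at 1.62 CPM per kilobase. There Scarb1, Msr1 and Colec12 overlapped their neighbours, as did Cd5l, Marco and Olr1, while the ranges of the first 3 genes were apart from each other.

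The first comparison asked what loss of HOIP from adipocytes did to these genes on the control diet. Of the 9 genes, 6 were higher in HoipA-KO CD than in WT CD and 0 were lower, where 18.9% of the 18427 genes tested were higher and 37.7% changed in either direction. Cd68 rose 58.0-fold, Olr1 28.3-fold and Msr1 25.2-fold, and Marco, Stab1 and Colec12 rose between 3.69-fold and 6.22-fold. Cd36, Cd5l and Scarb1 did not pass the test, though each passed under some of the alternative settings. The median log2 fold change of the 9 genes was 2.64, against -0.06 for all genes tested. In 8 of the 9, every HoipA-KO library lay above both WT libraries of the fit, a pattern found in 27.0% of all genes tested.

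**Figure D1:**
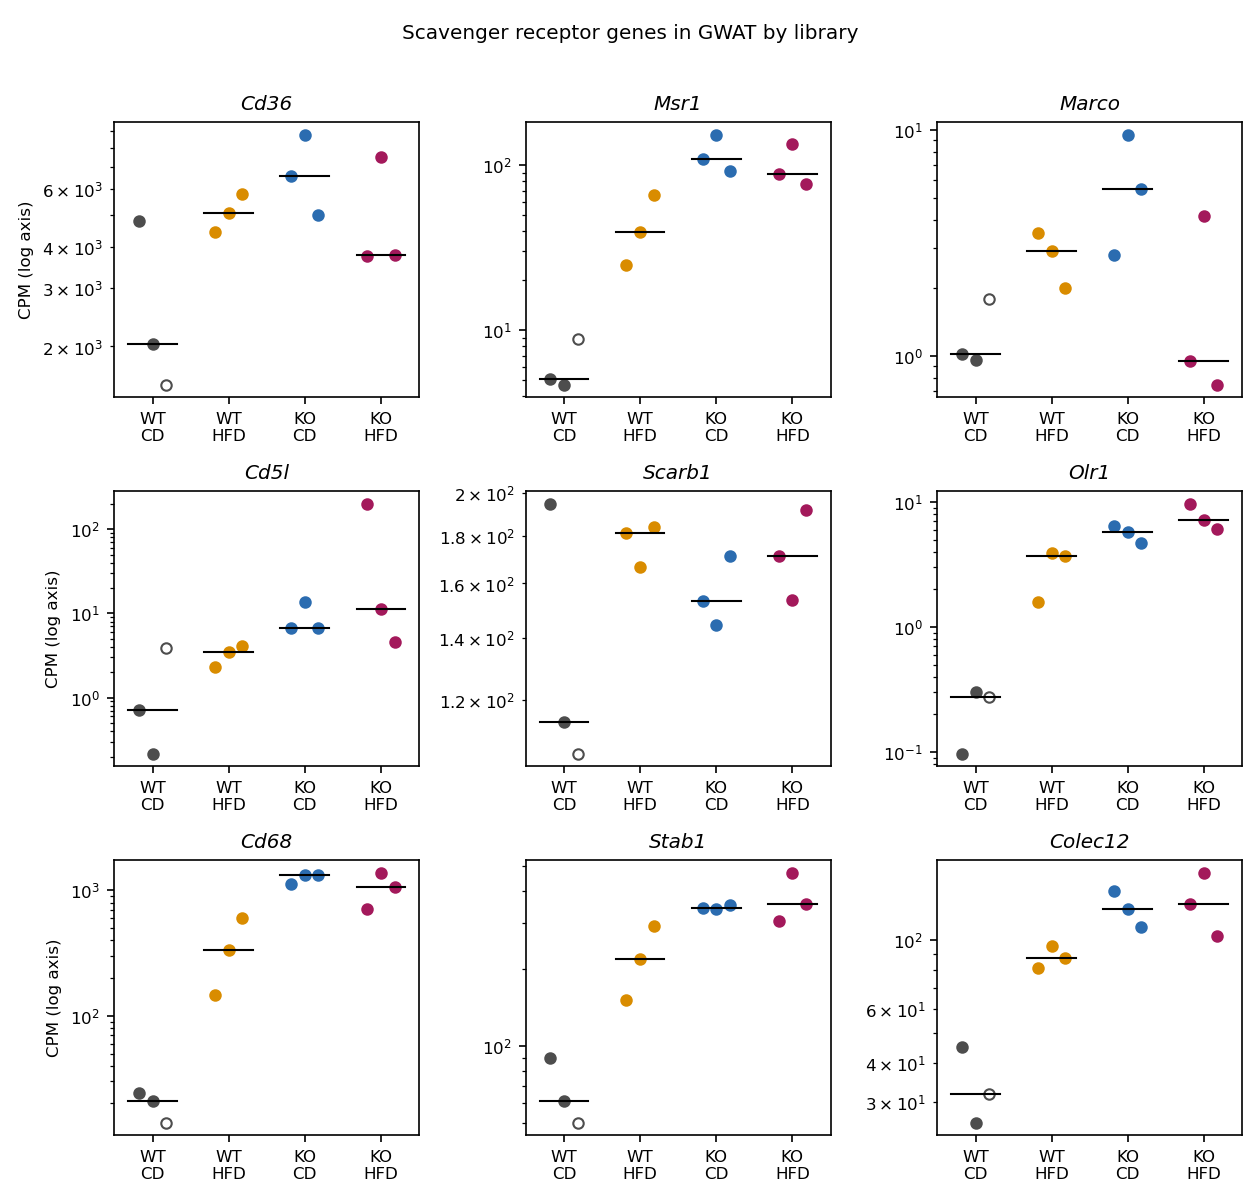
Level of each of the 9 genes in every library, in CPM on a log axis, with 1 point per library, a line at the median of each group, and WT CD replicate 3 drawn open. Cd68, Msr1, Olr1, Stab1 and Colec12 are lowest in the 3 WT CD libraries, intermediate in WT HFD and highest in both HoipA-KO groups, whereas the groups overlap for Scarb1.

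Cd68, a lysosomal glycoprotein of macrophages that is also found at their surface, had 24.1, 20.8 and 14.1 CPM in the 3 WT CD libraries. It had 1124, 1331 and 1332 CPM in HoipA-KO CD, so that the lowest HoipA-KO library was far above the highest WT library. The log2 fold change was 5.86 (SE 0.49, edgeR adjusted p = 0.000464) with 11 libraries and 6.00 (SE 0.44) with 12. In WT HFD the 3 libraries held 147, 335 and 602 CPM and in HoipA-KO HFD 712, 1390 and 1064 CPM.

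Among the class A receptors, Msr1, which binds acetylated and oxidised LDL, rose from 5.07, 4.67 and 8.81 CPM in WT CD to 109, 154 and 92.8 CPM in HoipA-KO CD. The groups were widely separated, and the log2 fold change was 4.65 (SE 0.41, edgeR adjusted p = 0.000452). Colec12, a collectin with a C-type lectin domain, rose from 45.1, 25.8 and 31.8 CPM to 144, 126 and 110 CPM, a log2 fold change of 1.88 (SE 0.26, edgeR adjusted p = 0.00111). The third gene of the class, Marco, a receptor for bacteria and particles, was low throughout. It had 1.02, 0.955 and 1.78 CPM in WT CD and 2.79, 9.55 and 5.47 CPM in HoipA-KO CD, a log2 fold change of 2.64 (SE 0.75, edgeR adjusted p = 0.0314). Here the HoipA-KO libraries spread over more than their distance from WT. The Marco call was lost without WT CD replicate 1 (edgeR adjusted p = 0.0944), WT CD replicate 2 (0.114), HoipA-KO CD replicate 2 (0.0886) or HoipA-KO CD replicate 3 (0.0575).

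Olr1, which encodes the oxidised LDL receptor LOX-1, was close to absent in WT CD, with 0.0975, 0.304 and 0.278 CPM from 4, 14 and 15 counts. HoipA-KO CD had 6.39, 5.80 and 4.71 CPM, all well above WT, and the log2 fold change was 4.82 (SE 0.52, edgeR adjusted p = 0.000565). It lay between 4.24 without WT CD replicate 1 and 5.86 without WT CD replicate 2. Stab1, a receptor of macrophages and of sinusoidal and lymphatic endothelium that takes up SPARC and other cargo, had 89.5, 61.2 and 50.4 CPM in WT CD. In HoipA-KO CD it had 343, 340 and 352 CPM, the tightest group of all for this gene, and the log2 fold change was 2.24 (SE 0.30, edgeR adjusted p = 0.000968).

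Cd36, the class B receptor for long-chain fatty acids and oxidised LDL, had 4800, 2036 and 1535 CPM in WT CD and 6567, 8761 and 5015 CPM in HoipA-KO CD. The 3 HoipA-KO libraries lay above the WT libraries, but WT replicate 1 came close to them. The log2 fold change of 1.04 (SE 0.45) did not pass (edgeR adjusted p = 0.103, and 0.0580 with 12 libraries). Cd36 passed with DESeq2's Wald test (adjusted p = 0.0400) and with library size only (edgeR adjusted p = 0.0495). Leaving out WT CD replicate 1 gave 1.77 (edgeR adjusted p = 0.0236), and leaving out replicate 2 gave 0.55 (edgeR adjusted p = 0.402). The summed adipocyte markers of the same WT libraries were 19697, 8491 and 6644 CPM, the order in which Cd36 fell. In HoipA-KO CD they were 3988, 3071 and 4407 CPM, the reverse of the order of Cd36. Within WT HFD and within HoipA-KO HFD the order was reversed as well. Summed markers of lipid-associated macrophages, such as Trem2 and Gpnmb, had the order of Cd36 within every group, with 8347, 21088 and 9503 CPM in HoipA-KO HFD. The sum of 8 general macrophage markers had another order in HoipA-KO CD (8386, 10770 and 8847 CPM). The parts of adipocyte and of macrophage RNA in the Cd36 values were not tested.

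Scarb1, the other class B receptor, which takes up cholesteryl ester from HDL, had 195, 114 and 105 CPM in WT CD and 153, 145 and 171 CPM in HoipA-KO CD. The groups overlapped and the log2 fold change was 0.06 (SE 0.21, edgeR adjusted p = 0.843). Leaving out WT CD replicate 1 gave 0.49 and leaving out replicate 2 gave -0.27, neither past the threshold, and with all 12 libraries less WT CD replicate 1 it was 0.55 and passed (edgeR adjusted p = 0.0154). Cd5l, also called AIM, had 0.707, 0.217 and 3.88 CPM in WT CD from 29, 10 and 209 counts, and 6.79, 13.6 and 6.65 CPM in HoipA-KO CD. All HoipA-KO libraries were above WT, but the log2 fold change of 4.35 (SE 1.44) stood at an edgeR adjusted p of 0.0538, and with WT CD replicate 3 included it was 2.48 (SE 1.25, edgeR adjusted p = 0.159). Without 1 of HoipA-KO HFD replicates 1, 2 and 3, which are no part of the contrast but share its estimate of spread, Cd5l passed on CD (edgeR adjusted p = 0.00222, 0.0396 and 0.0232). Cd5l also passed with DESeq2's Wald test (adjusted p = 0.00360) and with the groups compared alone (edgeR adjusted p = 0.0107). Without a filter the edgeR adjusted p was 0.0462, and with at least 10 counts in every library 0.0487.

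With all 12 libraries the same count of 6 higher and 0 lower was reached, where 15.6% of 18074 genes tested were higher and 34.7% changed. WT CD replicate 2 held the epididymal RNA, and without it 5 members and 31.7% of all genes were called, which leaves 1 WT CD library assumed to vary like the other groups. The 9 spermatogenic markers were lower in HoipA-KO CD than in WT CD as well, and the part of such RNA in the values of the members was not tested.

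**Figure D2:**
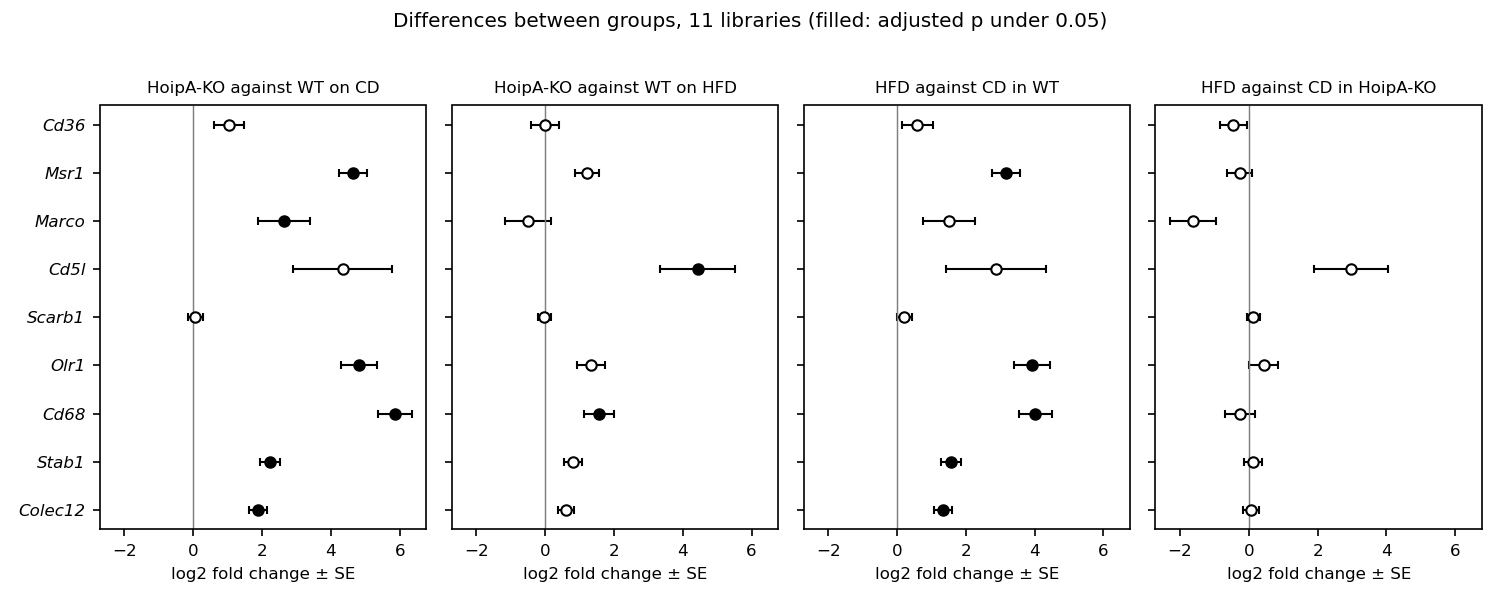
Log2 fold change with its SE for each of the 9 genes in 4 comparisons, fitted on 11 libraries, with filled points where the edgeR adjusted p was under 0.05. On CD the points of Cd68, Olr1 and Msr1 stand at 5.86, 4.82 and 4.65, on HFD no point but Cd5l is above 1.57, and for HFD against CD in HoipA-KO all points are open.

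The second comparison was the same genotype difference on HFD. Only Cd5l and Cd68 were called higher and 0 were lower. Of all genes tested, 4.20% were higher, 7.62% were lower and 11.8% changed in either direction. With all 12 libraries 0 members were called (2.78% of all genes). In that fit, 6 members and 3931 of all 18074 genes tested had an unadjusted edgeR p under 0.05. The median log2 fold change of the members was 0.80, against 0.06 for all genes. In 6 of 9, each HoipA-KO HFD library was above each WT HFD library, as in 20.6% of all genes tested.

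Cd68 was 2.97-fold higher in HoipA-KO HFD (log2 fold change 1.57, SE 0.44, edgeR adjusted p = 0.0495), and the lowest HoipA-KO library at 712 CPM stood above the highest WT library at 602 CPM. Msr1 had 24.6, 39.6 and 66.3 CPM in WT HFD and 88.2, 134 and 77.2 CPM in HoipA-KO HFD, which did not overlap (log2 fold change 1.22, SE 0.36, edgeR adjusted p = 0.0563). Olr1 had 1.59, 3.94 and 3.73 CPM against 9.73, 7.15 and 6.12 CPM, again apart (1.32, SE 0.41, edgeR adjusted p = 0.0665). Both thus stood near the threshold without passing it. Stab1 had 151, 218 and 293 CPM in WT HFD and 306, 473 and 358 CPM in HoipA-KO HFD, a log2 fold change of 0.80 (SE 0.26, edgeR adjusted p = 0.0759). Colec12 had 81.5, 95.7 and 87.6 CPM against 130, 165 and 103 CPM, a log2 fold change of 0.61 (SE 0.23, edgeR adjusted p = 0.112).

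The Cd5l call rested on 1 library. WT HFD had 2.32, 3.50 and 4.13 CPM, while HoipA-KO HFD had 202, 11.3 and 4.59 CPM, the first from 10854 counts. The log2 fold change was 4.43 (SE 1.10, edgeR adjusted p = 0.0483) with HoipA-KO HFD replicate 1 and 1.29 (edgeR adjusted p = 0.150) without it. This library was also the one of its group with the most epididymal RNA (1312 CPM against 0.133 and 176 CPM), and WT CD replicate 2, with 14986 CPM of these markers, had 0.217 CPM of Cd5l. The part of such RNA in the Cd5l values was not tested. The removal of any of 8 libraries ended the Cd5l call, namely any WT HFD or HoipA-KO CD library and HoipA-KO HFD replicates 1 and 2 (edgeR adjusted p 0.0627 to 0.167). For Cd68 the call ended without WT HFD replicate 1 or 2, any HoipA-KO CD library, or HoipA-KO HFD replicate 2 or 3 (edgeR adjusted p 0.0664 to 0.151). Without WT HFD replicate 3, the library of its group with most macrophage RNA, the log2 fold change of Cd68 was 2.17. The number of members called lay between 0 and 5 when 1 library was left out. It was 5 without WT CD replicate 2, where 19.9% of all genes were called, and 0 without WT HFD replicate 1, where 1.53% were.

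The class B genes did not differ detectably between genotypes on HFD. Cd36 had 4439, 5066 and 5788 CPM in WT HFD and 3756, 7499 and 3783 CPM in HoipA-KO HFD, where 1 library was high and the others low (log2 fold change -0.002, SE 0.40, edgeR adjusted p = 0.998). Scarb1 had 181, 167 and 184 CPM against 171, 154 and 192 CPM, which overlapped fully (-0.03, SE 0.19, edgeR adjusted p = 0.934). Marco had 3.49, 2.90 and 1.99 CPM against 0.947, 4.15 and 0.747 CPM, a log2 fold change of -0.49 (SE 0.66, edgeR adjusted p = 0.635), with 2 of the 3 HoipA-KO libraries under all WT libraries.

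The third comparison was the effect of the diet itself within each genotype. In WT mice HFD raised 5 of the 9 genes and lowered 0, where 9.35% of all genes tested were higher and 14.8% changed, and the median log2 fold change of the members was 1.56 against 0.004 for all genes. This comparison and the first share the WT CD libraries. Cd68 rose 16.2-fold (log2 fold change 4.02, SE 0.49, edgeR adjusted p = 0.00617), Olr1 15.2-fold (3.93, SE 0.52, edgeR adjusted p = 0.00617) and Msr1 9.02-fold (3.17, SE 0.41, edgeR adjusted p = 0.00617). Stab1 rose 2.96-fold (1.56, SE 0.30, edgeR adjusted p = 0.0128) and Colec12 2.52-fold (1.33, SE 0.26, edgeR adjusted p = 0.0142). The libraries of WT HFD and the 2 WT CD libraries of the fit did not overlap for these 5 genes, nor for Marco and Cd5l, 7 of 9 in all, as in 23.9% of all genes tested. With WT CD replicate 3 included, Cd5l overlapped and 6 of 9 remained apart. Within WT HFD the values of Cd68, Msr1, Stab1, Cd36 and Cd5l were lowest in replicate 1 and highest in replicate 3, as was the macrophage marker sum. Marco ran the other way, Olr1 and Colec12 were highest in replicate 2, and Scarb1 was lowest there.

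Marco (log2 fold change 1.51, SE 0.75, edgeR adjusted p = 0.219), Cd5l (2.88, SE 1.45, edgeR adjusted p = 0.221), Cd36 (0.59, SE 0.45, edgeR adjusted p = 0.408) and Scarb1 (0.21, SE 0.21, edgeR adjusted p = 0.534) did not pass. With 12 libraries 5 genes were called as well, where 15.0% of all genes changed. Without WT CD replicate 2 the calls of Stab1 (edgeR adjusted p = 0.0769) and Colec12 (0.0724) were lost and 3 members were called, with 5.52% of all genes. When the 2 WT groups were fitted by themselves, 0 genes of all were called, with edgeR adjusted p-values of these 5 members between 0.0861 and 0.0926.

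In HoipA-KO mice HFD changed 0 of the 9 genes by edgeR's quasi-likelihood test, as it changed 0 of all genes tested (0%), and the libraries of the 2 diets overlapped for all 9, whereas 3.42% of all genes were higher without overlap. At an unadjusted p under 0.05 stood 2 members and 415 genes of all, and DESeq2's Wald test called 7 genes of all and none of the members. Cd68 differed by -0.27 (SE 0.44), Msr1 by -0.26 (SE 0.36), Stab1 by 0.13 (SE 0.26), Colec12 by 0.06 (SE 0.23) and Olr1 by 0.43 (SE 0.41) on the log2 scale. The members with an unadjusted p under 0.05 were Marco (log2 fold change -1.62, SE 0.66) and Cd5l (2.96, SE 1.08), the latter -0.17 without HoipA-KO HFD replicate 1.

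Whether the genotype effect differed between diets was tested by the interaction term, the log2 fold change on HFD minus that on CD. It was negative for 8 of the 9 genes and passed for 3, Cd68 (-4.29, SE 0.65, edgeR adjusted p = 0.0256), Olr1 (-3.50, SE 0.66, edgeR adjusted p = 0.0287) and Msr1 (-3.44, SE 0.54, edgeR adjusted p = 0.0256), where 3.58% of all genes were lower, 0.331% were higher and 3.91% changed. The median interaction of the members was -1.44, against -0.01 for all genes tested, and the terms of all genes share the same WT CD libraries. Cd68, Olr1 and Msr1 passed with all 12 libraries as well (2.78% of all genes). Stab1 (-1.44, SE 0.40) and Colec12 (-1.27, SE 0.35) both stood at an edgeR adjusted p of 0.0812, Marco was at -3.13 (SE 1.00, edgeR adjusted p = 0.120), Cd36 at -1.04 (SE 0.60, edgeR adjusted p = 0.340), Scarb1 at -0.09 (SE 0.29) and Cd5l at 0.08 (SE 1.81). The 3 calls were lost without WT CD replicate 2, WT HFD replicate 2, any HoipA-KO CD library, or HoipA-KO HFD replicate 1 or 3, and that of Olr1 also without WT HFD replicate 3. Their edgeR adjusted p-values were then between 0.0573 and 0.0928 and the interaction of these 3 genes was -2.88 or lower whichever library was left out. In the fits that ended all 3 calls, between 1 and 4 genes of all those tested were called. Without WT CD replicate 1, 5 members passed, and 18.2% of all genes did so, against 3.91% with it.

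Lean HoipA-KO tissue was also set against obese WT tissue. Msr1 (log2 fold change 1.48, SE 0.36, edgeR adjusted p = 0.0268) and Cd68 (1.84, SE 0.44, edgeR adjusted p = 0.0264) were higher in HoipA-KO CD than in WT HFD, 2 of 9 genes where 6.78% of all genes were higher, 9.07% were lower and 15.8% changed, and 0 members were lower. With 12 libraries Cd68 was called and Msr1 was not (edgeR adjusted p = 0.0585), where 5.53% of all genes changed. Both calls ended without WT HFD replicate 1 or 2 or any HoipA-KO CD library (edgeR adjusted p 0.0506 to 0.0961), and without WT HFD replicate 3 there were 3 calls among the members and 16.7% among all genes. Olr1 (0.89, SE 0.41), Stab1 (0.68, SE 0.26), Colec12 (0.55, SE 0.23), Cd5l (1.48, SE 1.11), Marco (1.13, SE 0.66), Cd36 (0.45, SE 0.40) and Scarb1 (-0.15, SE 0.19) did not pass.

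Markers of macrophages moved with the members. Of 8 markers chosen without any member gene (Adgre1, Csf1r, Fcgr1, Mertk, C1qa, C1qb, C1qc and Lyz2), 7 were higher in HoipA-KO CD than in WT CD and 7 in WT HFD than in WT CD, and none was at 0 in any library. Of all genes tested, 18.9% and 9.35% were higher in these comparisons. On HFD, 4 of the 8 markers were higher in HoipA-KO (4.20% of all genes), and 0 with 12 libraries. Their summed level was 469 to 757 CPM in WT CD, 1877 to 5371 CPM in WT HFD, 8386 to 10770 CPM in HoipA-KO CD and 6965 to 9983 CPM in HoipA-KO HFD. Markers of lipid-associated macrophages, such as Trem2 and Gpnmb, were higher on CD in 8 of 8 and summed to 106 to 268 CPM in WT CD and 16891 to 23022 CPM in HoipA-KO CD. In bulk tissue a change in the number of cells of a type and a change of RNA per cell cannot be told apart.

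As a description chosen after the values were seen, each gene was divided by the summed macrophage markers of its own library. On this ratio the members did not move together between WT CD and HoipA-KO CD. Cd68 was higher relative to the markers in HoipA-KO CD, with log2 ratios of -3.02 to -2.73 against -5.06 to -4.72 in WT CD. For Msr1 (-6.58 to -6.13 against -7.22 to -5.73), Olr1 (-10.9 to -10.4 against -12.9 to -10.7) and Cd5l the ranges overlapped. The other 5 were lower relative to the markers in every HoipA-KO CD library than in any WT CD library. Stab1 went from between -3.22 and -3.08 to between -4.99 and -4.61, Colec12 from between -4.41 and -3.88 to between -6.41 and -5.87, and Marco from between -9.53 and -8.04 to between -11.6 and -10.1. Cd36 fell to between -0.82 and -0.30 from between 1.71 and 2.66, and Scarb1, whose CPM overlapped between the groups, fell to between -6.22 and -5.69 from between -2.27 and -1.96. In WT HFD, Cd68 and Olr1 were above WT CD on the ratio, and Cd36, Scarb1, Stab1 and Colec12 were below. These ratios carry no test, and their denominators differ between groups. The sum is weighted to its most abundant marker, Lyz2, at 188 to 301 CPM in WT CD and 5093 to 7498 CPM in HoipA-KO CD. Other markers did not all rise in step. Adgre1 had 13.6 to 20.1 CPM in WT CD and 324 to 668 CPM in HoipA-KO CD, and Mertk 31.2 to 70.4 and 70.8 to 108 CPM. Ratios to another marker would therefore differ.

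**Figure D3:**
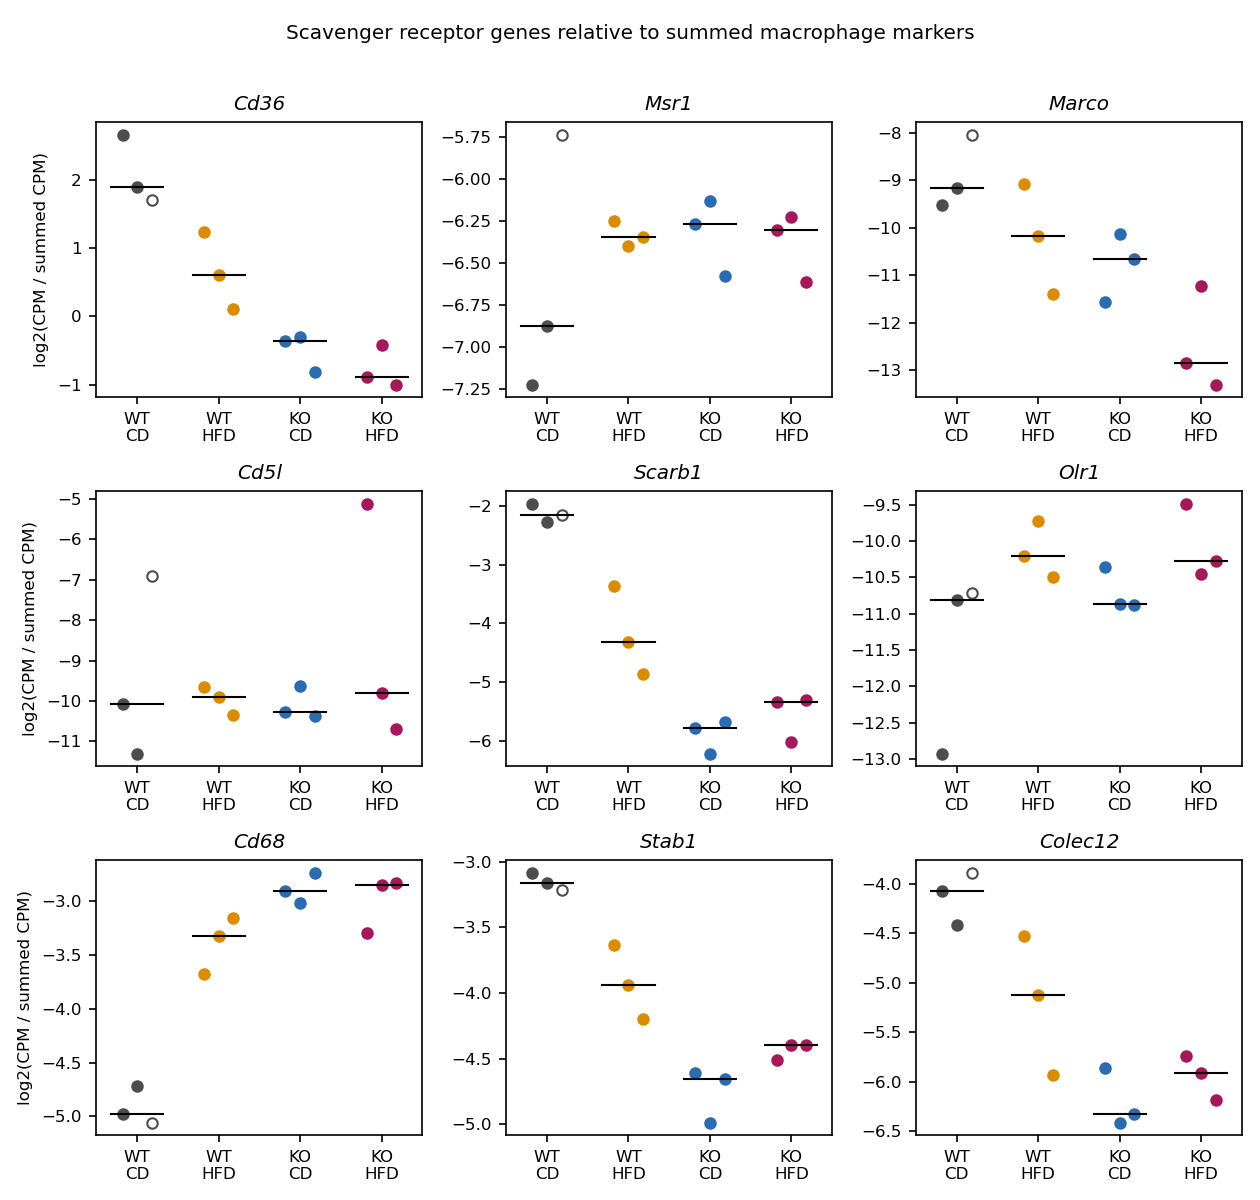
Log2 ratio of the CPM of each gene to the summed CPM of 8 macrophage markers in the same library, 1 point per library, with a line at the group median and WT CD replicate 3 drawn open. Cd68 is above its WT CD range in the other 3 groups, Msr1 overlaps between groups, and Cd36, Scarb1, Stab1 and Colec12 lie below their WT CD ranges.

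Beyond the 9 genes, a list of 18 other scavenger receptors was examined, of which 17 had a row in the table and 16 passed the filter. Asgr1, the hepatic asialoglycoprotein receptor, was below it, with at most 0.598 CPM, and Cd163l1 had no row. On CD, 10 of the 16 were higher in HoipA-KO and 2 were lower, against 18.9% and 18.8% of all genes, and their median log2 fold change was 1.51. Clec7a, the β-glucan receptor Dectin-1, rose from at most 6.85 CPM in WT CD to 206 to 285 CPM in HoipA-KO CD (log2 fold change 5.29, SE 0.49, edgeR adjusted p = 0.000514). Cd44, the hyaluronan receptor, rose by 4.72 (SE 0.48, edgeR adjusted p = 0.000598) and Mrc1, the mannose receptor, by 2.76 (SE 0.41, edgeR adjusted p = 0.00192). Stab2, the paralogue of Stab1, rose by 2.98 with 11 libraries (edgeR adjusted p = 0.00278) and by 1.28 with 12 (edgeR adjusted p = 0.204), as WT CD replicate 3 held 6.81 CPM and the others 0.912 and 0.926 CPM.

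Ssc5d (log2 fold change 2.34), Cxcl16 (2.17), which is both a chemokine and a receptor for oxidised lipid, the endocytic receptor Lrp1 (2.10), Scarf2 (1.85), Scara3 (1.17) and the lysosomal membrane protein Scarb2 (1.10) also rose on CD. Scara5 (0.51), Ager (0.49), Scarf1 (0.26) and Megf10 (-1.34, edgeR adjusted p = 0.0684) did not pass. With 12 libraries 9 were higher and 2 lower, the latter Cd163 and Megf10 (-1.35, edgeR adjusted p = 0.0486). The haemoglobin-haptoglobin receptor Cd163 went the other way. It had 28.5 to 49.1 CPM in WT CD and 6.88 to 7.72 CPM in HoipA-KO CD (log2 fold change -2.37, SE 0.21, edgeR adjusted p = 0.000452), and 41.8 to 56.2 CPM in WT HFD against 13.2 to 14.7 CPM in HoipA-KO HFD (-1.82, SE 0.19, edgeR adjusted p = 0.00723). Both differences passed with all 12 libraries as well (edgeR adjusted p = 0.000111 and 0.0163). The second gene called lower, the multiligand receptor Lrp2 (-3.73, SE 1.19, edgeR adjusted p = 0.0384, and 0.0600 with 12 libraries), had 2.46, 213 and 19.0 CPM in the WT CD libraries, the 213 CPM in the library with the epididymal RNA, and 5.53 to 9.26 CPM in HoipA-KO CD.

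**Figure D4:**
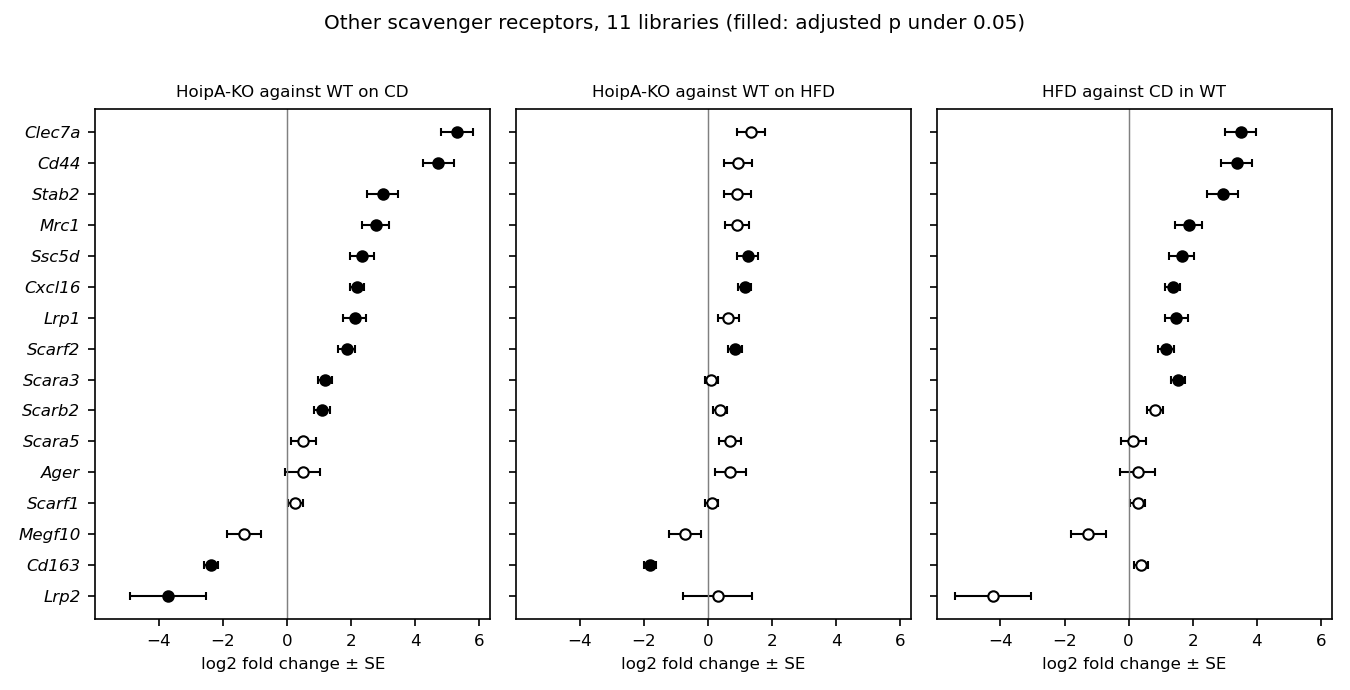
Log2 fold change with its SE for the 16 other scavenger receptors that passed the filter, in 3 comparisons on 11 libraries, ordered by the first and filled where the edgeR adjusted p was under 0.05. Clec7a at 5.29 and Cd44 at 4.72 lead on CD, and Cd163 is below 0 in both comparisons of genotypes.

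On HFD, Cxcl16 (1.14), Ssc5d (1.24) and Scarf2 (0.84) were higher in HoipA-KO and Cd163 was lower. Of all genes tested, 4.20% were higher and 7.62% were lower. With 12 libraries Cxcl16 and Cd163 were called, where 2.78% of all genes changed. In WT, HFD raised 9 of the 16, namely Clec7a (3.49), Cd44 (3.37), Stab2 (2.93), Mrc1 (1.87), Ssc5d (1.65), Scara3 (1.54), Lrp1 (1.48), Cxcl16 (1.37) and Scarf2 (1.16). It lowered 0, where 9.35% of all genes tested were higher and 5.47% were lower, and Cd163 did not pass (0.38, SE 0.21). For Stab2, WT HFD held 2.79 to 10.6 CPM, and WT CD replicate 3, left out of the fit, held 6.81 CPM. When the WT groups were fitted by themselves, 0 genes of all were called. The interaction was called for Clec7a (-3.94, SE 0.65) and Cd44 (-3.78, SE 0.64), where 3.91% of all genes were called and 3.58% were lower. Without WT HFD replicate 2 the interaction was called for 4 genes of all, and without HoipA-KO HFD replicate 3 for 1. In HoipA-KO, HFD changed 0 of the 16, as it changed 0 of all genes tested.

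Genes that act around the receptors were followed in 3 further lists. Between genotypes, 18.9% of all genes tested were higher and 18.8% lower on CD, and 4.20% and 7.62% on HFD. Of 11 genes for ligands, 9 were tested, Saa1 and Saa2 being below the filter. On CD 1 was called, Thbs2, encoding thrombospondin-2, at 1.71 (SE 0.40, edgeR adjusted p = 0.0120), and on HFD 0 were called. In WT, HFD raised 3, where 9.35% of all genes rose. Of 9 co-receptors, kinases and adaptors, 6 were higher and 1 lower in HoipA-KO on CD. The largest rises were in Tlr6, a Toll-like receptor that pairs with TLR2, at 3.84 (SE 0.34, edgeR adjusted p = 0.000452), and in the tetraspanin Cd9 at 3.58 (SE 0.35, edgeR adjusted p = 0.000498). The 1 gene lower was Cav1, the caveolar coat protein, at -1.65 (SE 0.43, edgeR adjusted p = 0.0139). On HFD 2 were higher and 1 was lower, and with 12 libraries 0 were called.

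Of 13 genes that handle internalised lipid, 7 were higher and 2 lower on CD, where 18.9% of all genes tested were higher and 18.8% were lower. Lipa, the lysosomal acid lipase, rose by 4.35 (SE 0.56, edgeR adjusted p = 0.00136) and Soat1, which esterifies cholesterol for storage, by 3.17 (SE 0.68, edgeR adjusted p = 0.0118). The genes that fell were Fabp4, the adipocyte and macrophage fatty acid binding protein, at -1.82 (SE 0.36, edgeR adjusted p = 0.00416), and Pparg, the adipogenic nuclear receptor, at -1.41 (SE 0.32, edgeR adjusted p = 0.00821, and 0.0561 with 12 libraries). With 12 libraries 7 were higher and 1 was lower on CD. On HFD 1 of the 13 was higher and 2 were lower (0 with 12 libraries), and in HoipA-KO the diet changed 0 of these 3 lists. The median log2 fold changes on CD were 0.37 for ligands, 1.89 for co-receptors, kinases and adaptors and 0.39 for lipid handling.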

How the data were processed

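Estimated counts per gene were used as deposited. The authors trimmed reads with Trim Galore 0.6.7, aligned them with STAR 2.7.10a and estimated counts with Salmon 1.5.2, without normalization. Their methods name a human build and the submitters' notes GRCm38, and the identifiers are of mouse genes. Deposited tables of DESeq2 fold changes and p-values were not used. Counts were rounded, filtered by filterByExpr and scaled by TMM. Quasi-likelihood tests of edgeR 4.0.16 (R 4.3.3), with Benjamini-Hochberg adjustment over all genes and a threshold of 0.05, were fitted on 11 libraries in 1 model of 4 groups, without a block and without WT CD replicate 3, which the authors' comparisons left out for a reason not given in the sources used here. CPM values were scaled by TMM over all 12 libraries. SE values come from the model. The fit was tested on simulated data. Alternatives were DESeq2 1.42.0, other scalings and filters, a stricter threshold, protein-coding genes only, the groups compared alone, a replicate block, all 12 libraries and the removal of each library.

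Members and lists were chosen with earlier results of these data known, and so were the motifs. Named were all 9 genes in every comparison, the other scavenger receptors, in the 3 further lists the 2 largest rises and falls on CD among genes called, and for each member the 2 most alike genes. RNA of 3 mice was pooled in each library, so p-values measure the spread between pools.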

Additional observations from a re-analysis of the deposited data

Results flagged for a closer look

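The interaction test called a difference in the effect of genotype between the diets for 3 of the 9 genes. Of all genes tested, 3.91% were called and 3.58% were lower. The difference of log2 fold changes, HFD minus CD, was -3.44 for Msr1 (edgeR adjusted p = 0.0256), -3.50 for Olr1 (edgeR adjusted p = 0.0287) and -4.29 for Cd68 (edgeR adjusted p = 0.0256). For each of these genes the HoipA-KO libraries were above the WT libraries on both diets. The 3 calls ended without WT HFD replicate 2, any HoipA-KO CD library, or HoipA-KO HFD replicate 1 or 3. At an adjusted p threshold of 0.01, 0 members were called. No value was examined for outlying libraries by Dixon's test.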

How the results depend on the processing

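Of 1173 refitted log2 fold changes of single genes, 1018 kept their direction and side of the threshold, 75 lost and 47 gained a call, and 33 changed sign. On CD the number of members called stayed within 1.5 times of 6 under every alternative (5 to 7 when 1 library was left out). On HFD it was 2, and it became 5 with library size only, 1 without a filter, 1 with the replicate block, 6 with DESeq2's Wald test, 0 with all 12 libraries, 0 with the groups compared alone, 0 at an adjusted p of 0.01, 0 to 5 when 1 library was left out, and 0 with all 12 libraries less WT CD replicate 1 or 2. For HFD against CD in WT it was 5, and 0 with the groups compared alone, 3 at 0.01 and 3 to 6 when 1 library was left out. In HoipA-KO it was 0 throughout. For HoipA-KO CD against WT HFD it was 2, and 1 with all 12 libraries, 4 with the groups compared alone, 0 at 0.01, 0 to 3 when 1 library was left out, and 1 or 0 with all 12 libraries less WT CD replicate 1 or 2. For the interaction it was 3, and 6 with DESeq2's Wald test, 0 at 0.01, 0 to 5 when 1 library was left out, and 6 with all 12 libraries less WT CD replicate 1. The share of all genes called moved as well. On HFD it was 11.8%, and 13.1% with library size only, 5.00% without a filter, 13.9% with the block, 23.9% with DESeq2, 2.78% with all 12 libraries, and 6.69% or 3.62% with those less WT CD replicate 1 or 2, while the groups compared alone gave 3038 genes of 16838. For HFD against CD in WT the groups compared alone gave 0 genes of all. For HoipA-KO CD against WT HFD the share was 15.8%, and 5.53% with all 12 libraries, 27.5% with the groups compared alone, and 9.21% or 6.54% with all 12 less WT CD replicate 1 or 2. For the interaction it was 3.91%, and 12.8% with DESeq2 and 18.3% with all 12 libraries less WT CD replicate 1. The cause of these differences was not tested.

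Signs changed only in values near 0 and in Cd5l. Between genotypes on HFD, Cd36 (-0.002) became 0.013 with DESeq2's size factors, 0.044 with library size only, 0.0051 without a filter, 0.013 with DESeq2's Wald test, and -0.43 to 0.18 when 1 library was left out. Scarb1 became -0.061 on CD with protein-coding genes only (-0.27 to 0.49 when 1 library was left out), 0.066 on HFD with library size only (-0.12 to 0.038), and 0.0032 in the interaction with protein-coding genes only (-0.53 to 0.25). For HFD against CD in WT it was between -0.12 and 0.67. For HFD against CD in HoipA-KO, leaving out 1 library gave -0.17 to 3.52 for Cd5l, -0.079 to 0.29 for Stab1 and -0.14 to 0.22 for Colec12. The interaction of Cd5l was -2.02 with the replicate block and -2.97 to 0.72 when 1 library was left out.

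Deviations from the group means were correlated between libraries of different groups. With the same replicate number, r lay between -0.37 and 0.50 in 15 pairs (median 0.048), 6 of them above 0.1. With different numbers it lay between -0.51 and 0.43 in 30 pairs (median -0.003), 8 of them above 0.1. In groups of so few libraries the deviations depend on each other, so this check cannot tell whether the numbers pair the samples. With the block, Cd5l on HFD (3.17, edgeR adjusted p = 0.164) and Olr1 in the interaction (-3.57, edgeR adjusted p = 0.0573) were no longer called, which left 1 member on HFD and 2 in the interaction. The numbers of members called in the other comparisons were the same as without it. Olr1 and Marco rest on counts as low as 4 and 42 in WT CD, and Cd5l on 10.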

Other observations

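For each of the 9 genes, the 2 of 10266 protein-coding genes with a mean of at least 10 CPM whose log2(CPM + 1) ran most nearly parallel over the 12 libraries were found by Pearson's r. These values describe libraries that share groups, depth and macrophage RNA, and carry no p. Cd68 ran with Trem2 (r = 0.999) and Spi1 (0.999), Msr1 with Slc38a1 (0.997) and Arhgap30 (0.995), Stab1 with Lama2 (0.996) and C5ar1 (0.996), Colec12 with Maf (0.981) and Slc36a1 (0.979), and Olr1 with Timp1 (0.980) and Mmp14 (0.978). Cd36 ran with Rnf13 (0.993) and Nrp1 (0.978), and Scarb1 with Gpx7 (0.974) and Cdc42ep2 (0.970). The closest genes were less alike for Marco, Vapa (0.835) and Riok3 (0.820), and for Cd5l, Atp2a2 (0.900) and Slco2a1 (0.885). Among Msr1, Olr1, Cd68, Stab1 and Colec12 themselves, r lay between 0.937 and 0.989 in the 10 pairs. These 5 are the members called for HFD against CD in WT, so they share differences between groups. In the pairs that held another member, r lay between -0.048 (Marco and Scarb1) and 0.811 (Cd36 and Colec12).

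Resident macrophage markers, a list that holds Cd163 and Mrc1 as well, did not move one way on CD. Of 8, 3 were higher and 1 was lower in HoipA-KO, their median log2 fold change being -0.38. On HFD 0 of the 8 were higher and 2 were lower (1 with 12 libraries). Among all genes tested, 18.9% were higher and 18.8% lower on CD, and 4.20% and 7.62% on HFD. Endothelial markers, which bear on Cd36, Scarb1 and Stab1, were lower on CD in 4 of 8 (2 with 12 libraries), with a median of -1.02 on the log2 scale, and fibroblast and progenitor markers were higher in 4 of 7 (1.32). Hepatocyte markers, among them Alb, summed to at most 55.0 CPM in any library.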
